A study of Mus musculus with 19 samples.

Results

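Corticospinal motor neurons (CSMN) at embryonic day 18 (E18) were compared with callosal projection neurons (CPN) of the same age. The comparison rests on 4 of the 19 arrays of the series, 2 titled as CSMN at E18 and 2 titled as CPN at E18. The arrays were taken by neuron type and age in their titles, and the comparison was chosen with earlier results of these data known. All cells came from C57BL/6 mice. Both types had been marked by green fluorescent microspheres that travel back along the axon, then dissociated and sorted by fluorescence straight into RNAlater, and the labels name the sensorimotor cortex as the injection field for both. RNA was amplified in 2 rounds before hybridization, and replicates are described as independent collections. CSMN and CPN of postnatal days 3, 6 and 14 (P3, P6 and P14), with 13 arrays, served to ask whether a difference at E18 recurred after birth, while 2 arrays of corticotectal neurons at P14 entered only the shared estimate of spread.

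CSMN lie in layer V of the cortex and send their axons below the cerebrum to the spinal cord, whereas CPN lie in several layers and join the hemispheres through the corpus callosum. In mouse cortex the transcription factors Fezf2 and Bcl11b (Ctip2) are known to direct the subcerebral fate, and Cux2 marks upper-layer neurons, many of them callosal. At E18 the axons of both types are still growing, and the germinal zones next to the ventricle still hold radial glia and intermediate progenitors that make neurons and, later, astrocytes.

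Values are log2 expression after RMA, 1 probe set for each of 18193 genes, and differences are CSMN minus CPN with the standard error (SE) of a limma model over all 19 arrays. A gene is called when its Benjamini-Hochberg adjusted p over all genes is under 0.05. The 4 E18 arrays had medians of 6.61 and 6.60 in CSMN and of 6.46 and 6.54 in CPN, and all 19 lay between 6.42 and 6.62. The standard deviation over genes was 1.85 and 1.77 in CSMN at E18 and 2.03 and 1.93 in CPN at E18, where all arrays ranged from 1.77 to 2.09. The dimmest 6065 genes had a median difference of 0.25, the middle 6064 one of 0.10 and the brightest 6064 one of -0.19. There are no detection calls, so values below the array medians depend on background, and a fold is given only where all 4 E18 arrays lay above 6.62, the highest array median. With 2 arrays in each group precision is limited, and any given count below can move with a single array.

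Both sorts carried the transcripts of young cortical projection neurons. Dcx, a microtubule protein of migrating neurons, measured 12.64 and 11.87 in CSMN and 12.21 and 12.74 in CPN, and Neurod6, a transcription factor of cortical excitatory neurons, measured 11.31 and 11.69 in CSMN and 12.04 and 11.71 in CPN. Neither gene was called, with differences of -0.21 and -0.37. The sorts were not alike in all neuronal transcripts. Of 18 pan-neuronal genes 6 rose in CSMN and none fell, with a median of 0.40. With arrays centred on these genes 2 rose and 4 fell. Of the genes that define CSMN, Fezf2 measured 10.75 and 10.42 in CSMN and 9.41 and 9.11 in CPN (1.33 ± 0.28 SE, 2.51-fold, adjusted p = 0.00615). Bcl11b measured 12.19 and 12.61 in CSMN and 9.71 and 11.15 in CPN (1.97 ± 0.42, 3.92-fold, adjusted p = 0.00646). Both genes were higher in each CSMN array than in each CPN array, and the CPN arrays lay well above the array medians for both. The E18 arrays of the 2 types do not overlap for 52.4% of all genes. Bcl11b did not pass without CPN replicate 1 (1.25, adjusted p = 0.0913) or CSMN replicate 2 (adjusted p = 0.053), and Fezf2 did not pass without CPN replicate 2 (adjusted p = 0.0514).

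The CPN sort also held transcripts of other cells. The median of 26 cell cycle genes was 6.91 and 6.75 in CSMN and 9.04 and 9.15 in CPN, and it lay between 6.45 and 7.14 in all later arrays. For 25 cortical progenitor genes it was 6.77 and 6.68 in CSMN and 10.48 and 10.18 in CPN, against 6.49 to 7.50 later. For 15 astrocyte genes it was 7.32 and 7.04 in CSMN and 9.80 and 9.80 in CPN, against 6.76 to 8.11 later. All 3 medians were thus higher in both CPN arrays of E18 than in any other array. Of their measured members 20 of 26, 19 of 25 and 11 of 15 fell in CSMN and none rose. The defining astrocyte genes Gfap (7.32 and 7.24 in CSMN, 7.08 and 6.77 in CPN) and Aqp4 (7.84 and 7.82 in CSMN, 7.47 and 7.43 in CPN) were not called, and neither was the radial glial factor Pax6 (6.37 and 6.44 in CSMN, 6.20 and 6.56 in CPN). Microglia genes fell for 4 of 13 (list medians of 6.88 and 6.40 in CSMN, 8.31 and 7.31 in CPN), none of which passed without CPN replicate 1 (Aif1 adjusted p = 0.103, C1qa 0.168, Csf1r 0.284 and Ctss 0.205). Interneuron genes fell for 4 of 13, but Dlx1, Slc32a1 and Lhx6 did not pass without CPN replicate 2 (adjusted p = 0.283, 0.207 and 0.151), nor Npy without CPN replicate 1 (adjusted p = 0.315). Of 11 endothelial and pericyte genes Slco1c1 (-4.69) and Pdgfrb (-1.48) fell and Flt1 (0.79) rose, where Pdgfrb did not pass without CPN replicate 1 (adjusted p = 0.134) and Flt1 did not without CPN replicate 2 (adjusted p = 0.174). Olig1 (-3.55) alone fell among 14 oligodendrocyte lineage genes, and no gene of the Cajal-Retzius, erythroid and meningeal lists was called. In sorted populations fewer cells of a type and less RNA per cell cannot be told apart. What part these cells have in any gene that was lower or higher in CSMN was not tested. The genes described below lie outside the cell cycle, progenitor and astrocyte lists unless said otherwise. These lists are short, and a gene outside them may still come from such cells.

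**Figure D1:**
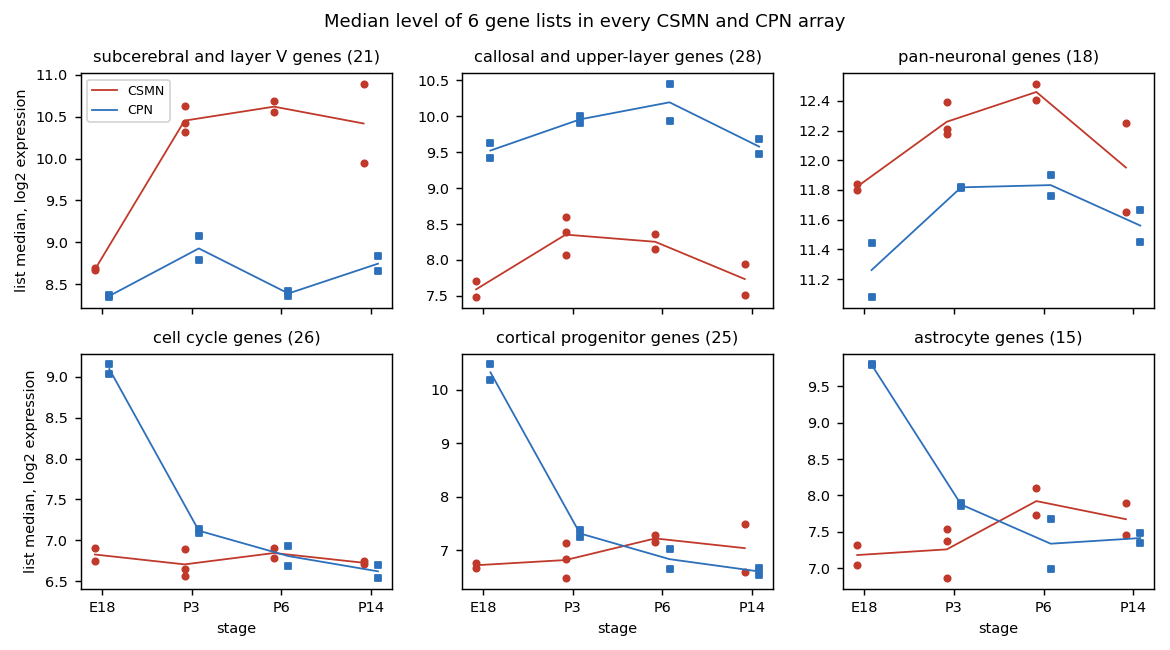
Median log2 expression of 6 gene lists in every CSMN array (red circles) and CPN array (blue squares) at E18, P3, P6 and P14; lines join group means and the number of measured genes stands in each title. The cell cycle, progenitor and astrocyte medians of the CPN arrays at E18 (9.04 to 10.48) lie above every later array, while the callosal and upper-layer list has medians of 7.48 and 7.70 in CSMN and 9.62 and 9.42 in CPN at E18.

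At E18 2350 of 18193 genes (12.9%) differed between the types, 724 higher (3.98%) and 1626 lower (8.94%) in CSMN. Every count of called list members stands against these shares. The difference was at least 2-fold for 228 of the genes that rose and 1350 of those that fell. The median difference of all genes was 0.10. Only 100 of the 724 increases and 666 of the 1626 decreases passed in each of 4 fits that left out 1 E18 array, a smaller share of the increases (13.8%) than of the decreases (41.0%). Without CPN replicate 1 there were 1121 calls, and without either CSMN array of P14 there were 4253. A model of the 4 E18 arrays alone called 843 genes (828 of them the same), of which 9.85% were higher in CSMN. The share of increases also moved with scaling. It was 30.8% here, 48.1% after quantile normalization and 2.09% with arrays centred on pan-neuronal genes, a centring that moved the median of all genes to -0.46.

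The mean difference over P3, P6 and P14, which uses none of these 4 arrays, was called for 747 genes (4.11%). In 232 of the 2350 genes the difference was called in the same direction after birth, 91 higher and 141 lower in CSMN. These make up 12.6% of the increases and 8.67% of the decreases at E18, and 31.1% of all later calls. A test of the E18 difference against the later one called 1483 genes (8.15%). Among the genes called at E18, 245 that rose and 917 that fell passed this test and were not called later. Another 47 were called in opposite directions at E18 and later. The remaining 909 passed at E18 with no call that separated E18 from later.

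**Figure D2:**
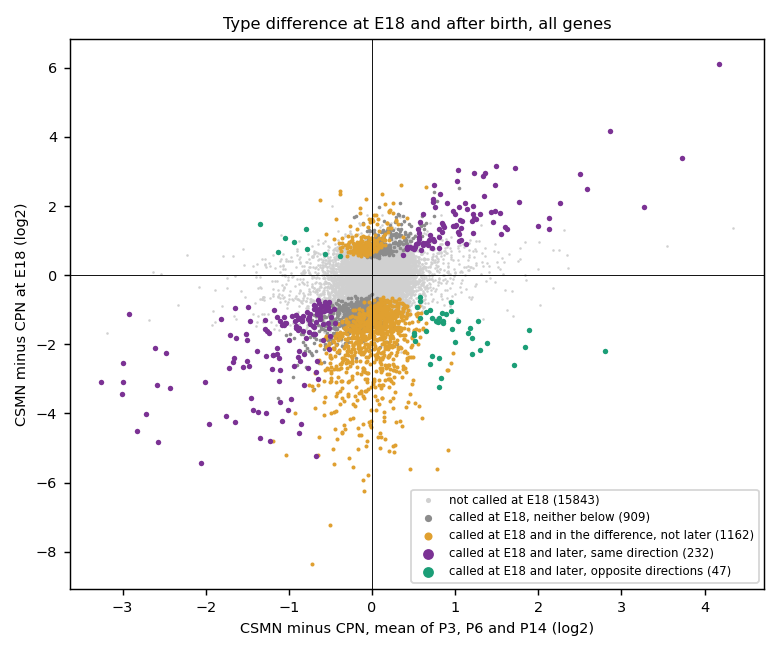
CSMN minus CPN at E18 (vertical axis, log2) against the mean difference of P3, P6 and P14 (horizontal axis, log2) for all 18193 genes, coloured by the tests they passed. The 917 genes that fell at E18 and not later form a column below 0, while 91 genes lie high and 141 low on both axes.

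Genes that rose in CSMN at E18 and again after birth were led by transcripts of varied function. Tcerg1l measured 12.58 and 12.50 in CSMN and 8.34 and 8.37 in CPN, an 18.1-fold difference (4.18 ± 0.25, adjusted p = 1.16e-07). Its replicates differed by under 0.1, and the difference was 2.87 after birth. Ermn, which encodes a cytoskeletal protein of myelinating oligodendrocytes, measured 10.12 and 10.86 in CSMN and 4.53 and 4.25 in CPN (6.10 ± 0.50, adjusted p = 1.67e-06). The CPN values lie near the bottom of the scale, and both probe sets of the gene were called (3.80 and 6.10). Other myelin genes did not move with it: Mog measured 4.16 and 4.88 in CSMN and 3.84 and 4.97 in CPN, Mbp measured 9.24 and 8.31 in CSMN and 8.70 and 8.52 in CPN, and none of 14 oligodendrocyte lineage genes rose. Npr3, the clearance receptor of natriuretic peptides, measured 8.69 and 8.21 in CSMN and 4.93 and 5.21 in CPN (3.38 ± 0.41), with a later difference of 3.73. Thy1, a cell surface protein of neurons anchored by lipid, measured 10.98 and 10.50 in CSMN and 7.59 and 7.94 in CPN (7.84-fold, 2.97 ± 0.24). Oma1, a protease of the inner mitochondrial membrane, measured 12.09 and 11.59 in CSMN and 8.83 and 9.0 in CPN (7.60-fold, 2.93 ± 0.25). No CSMN array overlapped a CPN array for any of these genes, as was true of 52.4% of all genes. The differences of Tcerg1l, Thy1, Tafa1, Nfe2l3 and Gda were larger at E18 than later, by 1.31, 1.74, 2.01, 1.69 and 1.86. Far2 (3.17), Galntl6 (3.10), Tafa1 (3.04), Nfe2l3 (2.71) and Gda (2.61) complete the group with Nefl, described with the cytoskeleton, and Prune2 (2.87), which did not pass without CPN replicate 1 or CSMN replicate 2 (adjusted p = 0.0723 and 0.0589).

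**Figure D3:**
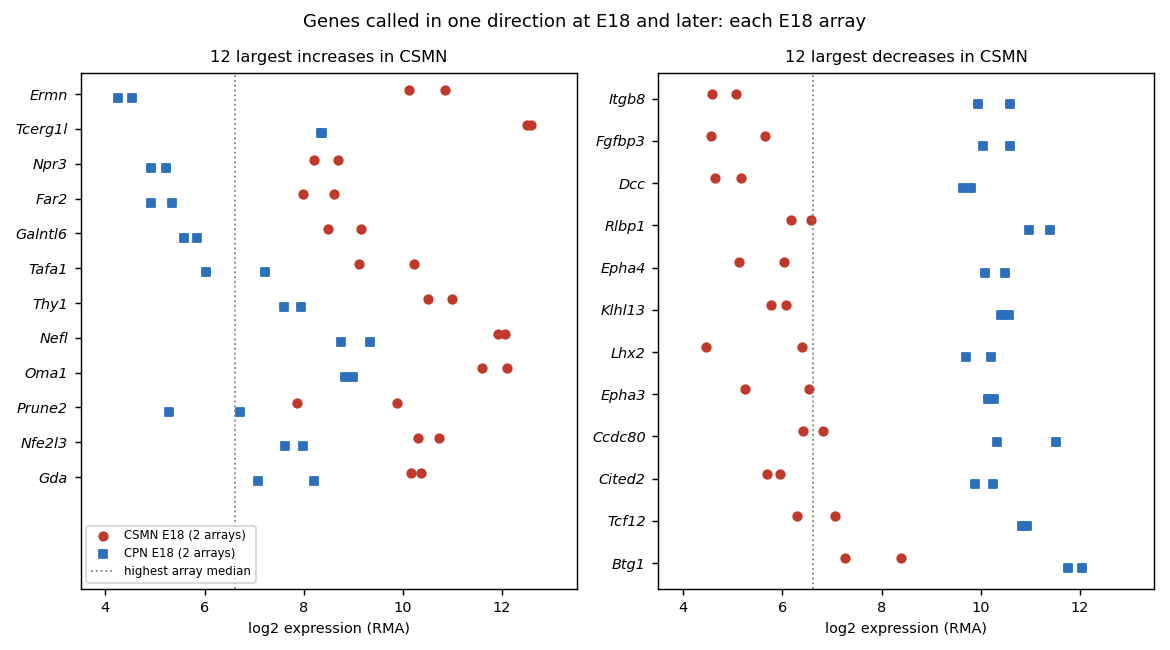
Log2 expression in each E18 array of CSMN (red circles) and CPN (blue squares) for the 12 largest increases (left) and decreases (right) among genes called in 1 direction at E18 and later; the dotted line marks the highest array median, 6.62. The groups are separate for every gene shown, as they are for 52.4% of all genes, and the genes were chosen by their E18 difference. Most decreased genes lie below the line in CSMN, as Itgb8 does at 5.07 and 4.57.

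The 250 bases before the annotated start of genes named for the size or the direction of their difference were searched on both strands for 6 motifs spelled CAGATG (an E-box), TGANTCA (AP-1), TAATTA (LIM homeodomain), ATCGAT (CUX), TGACGTCA (CRE) and TTTCCCGC (E2F). No 2 matches overlapped in the windows shown. Shown as picked examples of windows with a match are Galntl6 (chr8:58911628-58911877, minus strand), Tafa1 (chr6:96112904-96113153, plus strand), Nfe2l3 (chr6:51432419-51432668, plus strand) and Fezf2 (chr14:12345866-12346115, minus strand), all higher in CSMN, and Nfia (chr4:97581693-97581942, plus strand) and Sema3c (chr5:17574566-17574815, plus strand), 2 genes lower in CSMN at E18 and higher later. Sequences are from RefSeq on GRCm38.p6 and run 5′ to 3′ on the gene's strand; capitals mark the E-box on either strand in Galntl6, Nfe2l3, Nfia and Sema3c and the AP-1 letters in Tafa1 and Fezf2.
Galntl6: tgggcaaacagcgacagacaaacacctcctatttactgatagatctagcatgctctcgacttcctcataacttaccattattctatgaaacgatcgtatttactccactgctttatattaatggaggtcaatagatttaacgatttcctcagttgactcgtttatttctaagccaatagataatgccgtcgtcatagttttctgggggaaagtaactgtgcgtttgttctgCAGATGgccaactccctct
Tafa1: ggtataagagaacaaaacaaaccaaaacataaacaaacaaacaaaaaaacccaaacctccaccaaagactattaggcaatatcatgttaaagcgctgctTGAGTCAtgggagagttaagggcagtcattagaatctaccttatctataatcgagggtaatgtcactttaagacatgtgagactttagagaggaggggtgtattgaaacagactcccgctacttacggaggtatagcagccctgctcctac
Nfe2l3: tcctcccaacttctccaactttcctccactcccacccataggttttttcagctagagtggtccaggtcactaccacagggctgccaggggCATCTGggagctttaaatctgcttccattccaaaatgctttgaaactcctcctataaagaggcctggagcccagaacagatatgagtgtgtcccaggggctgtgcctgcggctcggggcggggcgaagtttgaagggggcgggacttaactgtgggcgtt
Fezf2: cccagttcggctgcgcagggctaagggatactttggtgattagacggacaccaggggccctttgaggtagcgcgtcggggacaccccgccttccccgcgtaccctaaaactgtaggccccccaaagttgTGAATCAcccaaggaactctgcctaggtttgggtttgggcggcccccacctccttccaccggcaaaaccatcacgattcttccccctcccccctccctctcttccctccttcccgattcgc
Nfia: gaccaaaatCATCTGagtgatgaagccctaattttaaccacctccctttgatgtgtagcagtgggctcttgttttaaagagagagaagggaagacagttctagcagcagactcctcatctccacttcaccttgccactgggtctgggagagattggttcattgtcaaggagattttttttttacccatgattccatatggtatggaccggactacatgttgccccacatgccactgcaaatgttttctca
Sema3c: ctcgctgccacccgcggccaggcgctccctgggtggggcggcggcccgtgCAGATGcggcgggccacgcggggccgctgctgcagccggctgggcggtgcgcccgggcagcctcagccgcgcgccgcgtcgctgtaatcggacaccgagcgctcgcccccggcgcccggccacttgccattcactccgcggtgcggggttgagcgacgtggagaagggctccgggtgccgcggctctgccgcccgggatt
The E-box letters occur in 14.4% of all 32851 such windows, in 11.5% of the 78 windows of genes that rose at E18 and later, and in 9.27% of the 151 windows of genes that fell in both. The AP-1 letters occur in 6.75%, 3.85% and 2.65% of the same windows. Among the 48 genes named for size, 38 have a window and 5 hold any of the 6 motifs. Galntl6, Tafa1 and Nfe2l3 are among these 5, and the others are not shown. The share of all windows with any of the 6 motifs was not counted, while the E-box letters alone occur in 14.4%. The matches are a description of these letters and not of a factor's binding.

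Genes that fell in CSMN at E18 and after birth included 4 adhesion and guidance receptors among the 12 largest decreases. Itgb8, a subunit of an integrin that activates transforming growth factor beta, measured 5.07 and 4.57 in CSMN and 10.58 and 9.94 in CPN (-5.44 ± 0.46, adjusted p = 2.25e-06), with a later difference of -2.05. Fgfbp3, which binds fibroblast growth factors, measured 4.56 and 5.64 in CSMN and 10.59 and 10.05 in CPN (-5.22 ± 0.31), and Rlbp1, a retinaldehyde-binding protein, measured 6.18 and 6.57 in CSMN and 11.39 and 10.97 in CPN (-4.81 ± 0.27). Dcc, the netrin receptor of commissural axons, measured 5.16 and 4.63 in CSMN and 9.65 and 9.80 in CPN (-4.83 ± 0.37). Its later difference was -2.57, and another, dimmer probe set differed by 0.27 and was not called. Epha4, a receptor for ephrins, measured 5.13 and 6.03 in CSMN and 10.48 and 10.08 in CPN (-4.70 ± 0.36), and its relative Epha3 measured 5.24 and 6.54 in CSMN and 10.26 and 10.14 in CPN (-4.31 ± 0.44). All these genes were below the array medians in CSMN and bright in both CPN arrays. Lhx2, a LIM homeodomain factor, measured 4.46 and 6.40 in CSMN and 9.70 and 10.20 in CPN (-4.52 ± 0.59, later -2.83). Btg1, which restrains proliferation, was the brightest of the group in CSMN with 7.26 and 8.40, against 12.04 and 11.77 in CPN (16.9-fold lower, -4.08 ± 0.53). Klhl13 (-4.57), Ccdc80 (-4.31), Cited2 (-4.25) and Tcf12 (-4.21) were the others among the 12. Klhl13 and Tcf12 rest on probe sets whose names end in _a_at. Without probe sets ending in _a_at, _s_at or _x_at (suffixed probe sets) neither passed (adjusted p = 0.252 and 0.845), and Tcf12 differed by 0.065.

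Subcerebral and layer V genes were higher in CSMN at E18 for part of the list. Of 21 measured members 9 rose, 1 fell and 11 did not pass, with a median difference of 1.02, where all genes have 0.10. After birth 18 of the same 21 were higher. Besides Tcerg1l, Npr3, Bcl11b and Fezf2, Ldb2, a cofactor of LIM domain proteins, measured 12.72 and 12.33 in CSMN and 10.84 and 10.22 in CPN (3.98-fold, 1.99 ± 0.23, adjusted p = 4.74e-05). Ephb1, an ephrin-B receptor, measured 10.96 and 11.00 in CSMN and 8.90 and 9.53 in CPN (3.40-fold, 1.77 ± 0.27). For both genes no CSMN array overlapped a CPN array, as for 52.4% of all genes. S100a10 (1.57), Cntn6 (1.54) and Sox5 (1.02) rose too but passed neither without CPN replicate 2 (adjusted p = 0.0942, 0.13 and 0.12) nor without CSMN replicate 1 (adjusted p = 0.0599, 0.0547 and 0.161), and Sox5 also not without CPN replicate 1 (adjusted p = 0.0836). Igfbp4, an insulin-like growth factor binding protein, was the exception and fell, with 7.98 and 7.67 in CSMN and 9.97 and 10.10 in CPN (4.63-fold lower, -2.21 ± 0.20), against a later difference of 0.38 that did not pass. All 6 of its probe sets are suffixed. Of these 3 were called lower, and 2 had the opposite sign (0.57 and 0.32) and were not called. For the whole list quantile normalization gave 14 increases and 1 decrease, and centring on pan-neuronal genes 8 and 5.

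Crym, a thyroid hormone binding protein that marks CSMN after birth, had not yet reached this pattern. It measured 8.28 and 8.37 in CSMN and 6.15 and 7.73 in CPN (1.38 ± 0.47, adjusted p = 0.0704). Its mean in CSMN was 8.32 at E18, 11.54 at P3, 12.51 at P6 and 12.19 at P14, and in CPN it was 6.94 at E18 and at most 9.22 later. The E18 difference minus the later one was -2.96 (adjusted p = 0.00326). Crym passed at E18 after quantile normalization (adjusted p = 0.0318). Pcp4, a calmodulin-binding peptide of layer V, measured 11.23 and 10.90 in CSMN and 9.87 and 10.81 in CPN (0.72, adjusted p = 0.148) and differed by 2.24 later.

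Callosal and upper-layer genes were lower in CSMN for 14 of 28 measured members, higher for 2 and not called for 12, with a median of -1.17. After birth 21 were lower and none was higher. Unc5d, a netrin receptor that mediates repulsion, measured 6.42 and 6.15 in CSMN and 10.30 and 10.29 in CPN (-4.01 ± 0.29, later -2.72). Nr2f1 (COUP-TFI), which patterns cortical areas, measured 7.49 and 8.55 in CSMN and 11.59 and 11.01 in CPN (9.71-fold lower, -3.28 ± 0.40). Lpl, lipoprotein lipase, measured 5.51 and 5.94 in CSMN and 9.43 and 8.90 in CPN (-3.44 ± 0.44). Each of these 3 genes was lower in both CSMN arrays and passed with any E18 array left out. Limch1 (8.61-fold lower), Cdh10 (6.25-fold lower) and Dkk3 (5.68-fold lower) also passed with any E18 array left out. Cux2 measured 5.91 and 6.24 in CSMN and 8.44 and 9.91 in CPN (-3.10 ± 0.69, adjusted p = 0.00852, later -3.26), but did not pass without CPN replicate 2 (adjusted p = 0.0848). Other, dimmer probe sets of Cux2 differed by 0.22 and -0.60 at E18 and were not called. Lmo4, a LIM-only factor, measured 8.18 and 7.20 in CSMN and 8.99 and 8.15 in CPN (-0.88 ± 0.33, adjusted p = 0.0968), and its arrays overlapped. The 2 increases were those of Pou3f1 (1.08) and Mef2c (0.78), and neither passed without CPN replicate 2 (adjusted p = 0.0991 and 0.173) or CSMN replicate 2 (adjusted p = 0.112 and 0.0948), while Pou3f1 did not without CPN replicate 1 or CSMN replicate 1 either (adjusted p = 0.192 and 0.115).

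Layer VI and subplate genes were called in few cases. Of 22 members 3 fell and none rose, where 8.94% of all genes fell and 3.98% rose. The median of 0.04 became -0.04 after loess normalization and -0.53 with arrays centred on pan-neuronal genes. Ccn2, a secreted matrix protein that marks the subplate, measured 5.32 and 4.96 in CSMN and 10.94 and 9.47 in CPN (-5.06 ± 0.54), Lpar1, a receptor for lysophosphatidic acid, fell too (-1.76), and Nfia is described below. Tbr1, the layer VI transcription factor, measured 7.55 and 7.41 in CSMN and 8.01 and 7.67 in CPN (-0.36, adjusted p = 0.701).

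**Figure D4:**
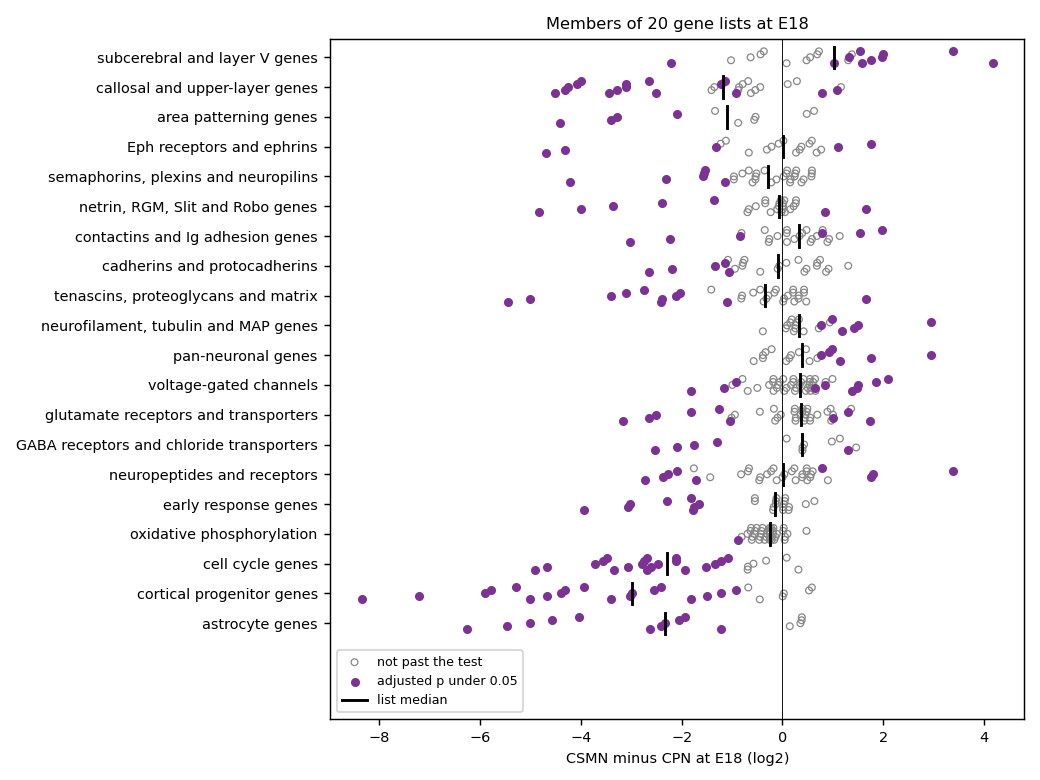
Difference CSMN minus CPN at E18 (log2) of every measured member of 20 gene lists; filled points passed at an adjusted p under 0.05, open points did not, and the bar is the list's median. The medians run from -3.00 for cortical progenitor genes to 1.02 for subcerebral and layer V genes, and the lists of Eph receptors, contactins, channels, glutamate and GABA receptors and peptides hold called members on both sides of 0.

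Transcription factors of young neurons fell or did not pass. In that list 9 of 25 genes fell, 16 did not pass and none rose, with a median of -0.35. Pbx3, a homeodomain factor, measured 4.18 and 4.04 in CSMN and 9.39 and 10.04 in CPN (-5.61 ± 0.64), the largest decrease outside the progenitor, cell cycle and astrocyte lists among genes not called later. That value rests on a suffixed probe set. The other probe set of Pbx3, suffixed too, differed by -1.70. Zbtb20, a zinc finger repressor, measured 8.01 and 7.55 in CSMN and 11.62 and 11.71 in CPN (14.8-fold lower, -3.89 ± 0.28, later -1.02). Id4, an inhibitor of basic helix-loop-helix factors, was 8.03-fold lower and Tcf4, one of their partners, 4.72-fold lower. Neither overlapped between the types, as is true of 52.4% of all genes, and neither was called later. Among 10 area patterning genes 4 fell and none rose. Dmrta2, needed for the medial cortex in mouse, measured 5.64 and 5.42 in CSMN and 10.03 and 9.86 in CPN (-4.41 ± 0.24), and Zic1 (-3.40), Nr2f1 and Emx2 (-2.10) were the others. Dmrta2, Zic1 and Emx2 were not called later.

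Axon guidance genes held called members in both directions. Of 19 Eph receptors and ephrins 2 rose and 3 fell (median 0.02, and -0.54 with arrays centred on pan-neuronal genes), so the receptor Ephb1 and its relatives Epha3 and Epha4 moved opposite ways in the same arrays. Of 27 netrin, repulsive guidance molecule, Slit and Robo genes 2 rose and 5 fell (median -0.06). Rgma, a membrane-bound repulsive ligand, measured 10.41 and 9.50 in CSMN and 8.27 and 8.32 in CPN (3.15-fold, 1.66 ± 0.40, adjusted p = 0.0142), and 2.13 later. It did not pass without CPN replicate 1, CPN replicate 2 or CSMN replicate 1 (adjusted p = 0.0773, 0.0567 and 0.101). Ntn4, a secreted netrin, measured 6.70 and 6.92 in CSMN and 10.70 and 9.65 in CPN (10.3-fold lower, -3.36 ± 0.43, later -0.07), and Slit2, a secreted repellent, measured 7.40 and 5.68 in CSMN and 9.14 and 8.72 in CPN (-2.39 ± 0.44). With Dcc and Unc5d, 2 receptors and 2 ligands of netrin and Slit signalling were lower in CSMN at E18. Of 30 semaphorin, plexin and neuropilin genes 6 fell and none rose (median -0.29). Sema5a measured 5.61 and 5.03 in CSMN and 9.48 and 9.58 in CPN (-4.21 ± 0.45), and Plxnc1, a semaphorin receptor, was 4.96-fold lower. Plxnd1 (-1.13) did not pass without CPN replicate 1, CSMN replicate 1 or CSMN replicate 2 (adjusted p = 0.358, 0.0642 and 0.14), and its later difference was -2.92.

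Adhesion and matrix genes held called members in both directions, and the balance depended on scaling. Of 25 contactins and other Ig adhesion genes 3 rose and 3 fell (median 0.34), against 11 and 3 after quantile normalization, 7 and 3 after loess and 2 and 5 with arrays centred on pan-neuronal genes (median -0.22). Cntnap5a, a member of the neurexin-like Caspr family, measured 9.04 and 8.94 in CSMN and 6.89 and 7.14 in CPN (3.93-fold, 1.98 ± 0.33), while Cntnap2 of the same family measured 6.43 and 7.19 in CSMN and 9.86 and 9.82 in CPN (-3.03 ± 0.32). By these probe sets the 2 relatives differed in direction, and Cntnap2 was not called later (0.50). Other, dimmer probe sets of Cntnap2 differed by -0.45 and 0.38 at E18 and were not called. Of 23 cadherins and protocadherins none rose and 5 fell, against 3 and 3 after quantile normalization, 1 and 4 after loess and 0 and 11 with that centring, and Cdh10 and Pcdh11x (-2.19) passed with each E18 array left out. Among 32 tenascins, proteoglycans and other matrix genes 1 rose and 10 fell (median -0.35), against 2 and 9 after quantile normalization and 0 and 18 with that centring. Tnc, a glycoprotein that radial glia secrete and a member of the progenitor list too, measured 6.24 and 5.39 in CSMN and 10.97 and 10.70 in CPN (-5.02 ± 0.34, later -0.47). Sparc was 10.6-fold lower. Adamts3, a procollagen protease, measured 5.99 and 6.99 in CSMN and 10.23 and 8.96 in CPN (-3.10 ± 0.42) and kept a later difference of -3.00. Hs3st1, a heparan sulfate sulfotransferase, was 5.22-fold lower at E18 and differed by -1.67 later. Wnt pathway genes fell for 8 and rose for 1 of 34, with Celsr1, a planar polarity cadherin, at 4.15 and 4.48 in CSMN and 9.55 and 9.26 in CPN (-5.09 ± 0.31). The receptors Fzd2 (-3.19), Fzd5 (-2.62) and Fzd8 (-1.87) fell with it. Growth factor signalling genes fell for 10 of 34 and none rose, among them Spry2, a feedback inhibitor of fibroblast growth factor signals (-3.26), and Fgfr3 (-2.40), which is also on the astrocyte list. None of the 3 Fzd genes, Celsr1, Spry2 or Fgfr3 was called later.

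Cytoskeletal genes of the axon were higher in CSMN where they were called in the main fit. Of 19 neurofilament, tubulin and microtubule-associated genes 6 rose and none fell, with a median of 0.33. With arrays centred on pan-neuronal genes 3 rose and 1 fell, with a median of -0.23. Nefl and Tubb3 are on the pan-neuronal list too. What part the share of neurons in each sort had in these increases was not tested. Nefl, the light neurofilament subunit, measured 11.93 and 12.06 in CSMN and 8.76 and 9.33 in CPN (7.71-fold, 2.95 ± 0.27, adjusted p = 4.56e-06), with a later difference of 1.36. Tuba4a, an alpha tubulin, measured 10.34 and 10.44 in CSMN and 8.87 and 9.08 in CPN (2.67-fold, 1.42 ± 0.19). Both passed with any E18 array left out. Nefm, the medium subunit, measured 9.09 and 9.61 in CSMN and 8.24 and 8.09 in CPN (2.27-fold), and did not pass without CPN replicate 2 or CSMN replicate 2 (adjusted p = 0.0531 and 0.0734). Tubb3, Ina and Map4 also rose (0.98, 0.77 and 1.5), and none of them passed without CPN replicate 2 (adjusted p = 0.147, 0.103 and 0.16). Tubb3 and Ina also did not without CPN replicate 1 (adjusted p = 0.0563 and 0.0752) or CSMN replicate 1 (adjusted p = 0.181 and 0.136), and Map4 did not without CSMN replicate 2 (adjusted p = 0.112). Of 23 growth cone genes 3 rose and 1 fell, against 6 and 0 after quantile normalization and 1 and 3 with that centring. Ablim3, an actin-binding LIM protein, measured 8.72 and 8.69 in CSMN and 6.62 and 6.24 in CPN (2.28 ± 0.48), whereas Gap43 (0.92) did not pass without CPN replicate 2 or CSMN replicate 1 (adjusted p = 0.102 and 0.0931). Among 21 motor proteins of axonal transport none rose and Kif21a fell (-1.97), which did not pass without CPN replicate 2 or CSMN replicate 2 (adjusted p = 0.153 and 0.18), and quantile normalization gave 2 increases (median 0.07, and -0.49 with that centring).

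The counts of synaptic and channel genes depended on scaling. Of 25 presynaptic genes 2 rose and 1 fell, against 11 and 1 after quantile normalization, 9 and 1 after loess and 2 and 4 with arrays centred on pan-neuronal genes. In the main fit 3.98% of all genes rose and 8.94% fell. Snap25, a subunit of the vesicle fusion complex, measured 10.88 and 10.47 in CSMN and 8.74 and 9.09 in CPN (3.38-fold, 1.76 ± 0.29), and Rab3c, a vesicle GTPase, measured 11.33 and 11.39 in CSMN and 9.20 and 9.96 in CPN (3.44-fold, 1.78 ± 0.31). Both passed with any E18 array left out. Syt11, a synaptotagmin, fell (-0.90) but did not pass without CPN replicate 1 or CSMN replicate 2 (adjusted p = 0.16 and 0.086). Of 36 glutamate receptor and transporter genes 3 rose and 6 fell, against 9 and 6 after quantile normalization, 7 and 6 after loess and 1 and 8 with that centring. Slc17a6, the vesicular glutamate transporter VGLUT2, measured 5.57 and 5.60 in CSMN and 8.38 and 9.13 in CPN (-3.17 ± 0.40, adjusted p = 8.67e-05, later -2.59), whereas Slc17a7 (VGLUT1) measured 6.43 and 6.86 in CSMN and 5.74 and 6.59 in CPN and was not called. Grm3, a metabotropic receptor, measured 10.98 and 10.61 in CSMN and 9.41 and 8.72 in CPN (3.32-fold, 1.73 ± 0.25, later 0.04). Gria3 (-2.66) and Gria4 (-1.26), subunits of AMPA receptors, were lower, and Gria4 did not pass without CPN replicate 1 or CSMN replicate 2 (adjusted p = 0.0867 and 0.0672). Of 12 GABA receptor and chloride transporter genes 1 rose and 4 fell, against 4 and 4 after either normalization, and the alpha subunits Gabra4 (-2.54) and Gabra2 (-2.09) were among those that fell.

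Of 45 voltage-gated channel genes 7 rose and 3 fell, with a median of 0.34, against 12 and 3 after quantile normalization, 9 and 3 after loess and 5 and 8 with arrays centred on pan-neuronal genes (median -0.22). Scn2a, the sodium channel of young axons, measured 10.87 and 11.40 in CSMN and 9.46 and 9.10 in CPN (3.62-fold, 1.86 ± 0.29, adjusted p = 0.000618). Its mean in CSMN was 11.14 at E18, 11.68 at P3, 11.76 at P6 and 11.80 at P14, and in CPN 9.28, 11.39, 11.68 and 11.57, so the types differed at the first age and lay close at the later ones. Kcns2, a modulatory potassium channel subunit, measured 8.68 and 8.66 in CSMN and 7.32 and 5.82 in CPN (2.10 ± 0.40). Kcnq5 measured 9.52 and 9.05 in CSMN and 8.32 and 7.27 in CPN (2.81-fold), and Cacna1e, a calcium channel, measured 10.40 and 9.76 in CSMN and 8.79 and 8.62 in CPN (2.60-fold). These 4 channels passed with each E18 array left out, though Kcnq5 and Cacna1e did not in a model of the E18 arrays alone (adjusted p = 0.0825 and 0.0552). Kcnd3, a subunit of A-type potassium channels, fell and was 3.51-fold lower, but did not pass as the mean of its probe sets (adjusted p = 0.189).

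Scn2a and Kcns2 belong to the 245 genes that rose at E18 and were not called later. Frzb, a secreted Wnt antagonist, measured 7.87 and 8.07 in CSMN and 5.96 and 5.08 in CPN (2.45 ± 0.37), and at P14 its mean was 6.66 in CSMN and 8.31 in CPN. Nrsn1, a vesicle membrane protein of neurites, measured 8.91 and 9.39 in CSMN and 7.15 and 6.78 in CPN (4.54-fold, 2.18 ± 0.37), and its CPN mean was 11.12 at P14. Prickle1, a planar polarity protein, measured 10.79 and 9.95 in CSMN and 8.61 and 6.94 in CPN (6.04-fold, 2.60 ± 0.47). Fam185a measured 9.17 and 9.53 in CSMN and 7.68 and 7.22 in CPN (3.73-fold), and Ptprr, a tyrosine phosphatase, measured 8.94 and 8.51 in CSMN and 6.35 and 6.95 in CPN (2.07 ± 0.32). In Frzb, Nrsn1, Prickle1, Fam185a and Ptprr the difference at E18 exceeded the later one by 1.68 to 2.83. Cdkl2 (2.55) rests on a suffixed probe set and did not pass without such sets (adjusted p = 0.577). Kcnt2 (2.36), Npy5r (2.34), Tbc1d5 (1.96) and Cyb561 (1.83) did not pass without CPN replicate 2 (adjusted p = 0.105, 0.0847, 0.0895 and 0.0701), nor Kcnt2 and Npy5r without CSMN replicate 2 (adjusted p = 0.0511 and 0.105). Of the 245 genes, 143 were higher in both CSMN arrays of E18 than in all other 17 arrays, and 72 were lower in both CPN arrays of E18 than in all other 17. Over all 18193 genes these counts were 809 and 774. The 245 were chosen by tests on these E18 arrays, so extreme E18 values follow in part from that choice.

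**Figure D5:**
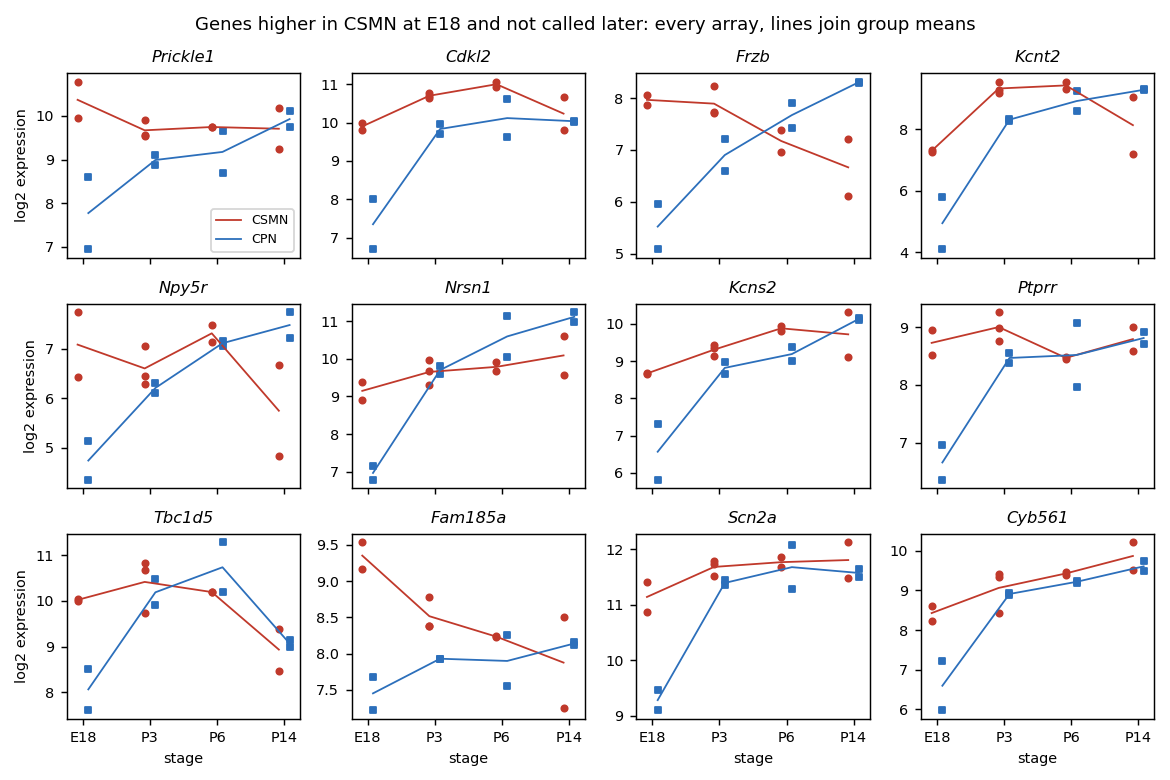
Log2 expression of the 12 largest increases among genes called at E18 and not later, in every CSMN array (red circles) and CPN array (blue squares) at E18, P3, P6 and P14; lines join group means. The types are apart at E18 in every panel, as they are for 52.4% of all genes, and the genes were chosen by tests on these arrays. Scn2a has means of 11.14 in CSMN and 9.28 in CPN at E18 and 11.80 and 11.57 at P14.

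Among the 917 genes that fell at E18 and were not called later, 606 were higher in both CPN arrays of E18 than in all other arrays, and 213 were lower in both CSMN arrays of E18 than in all others. Over all 18193 genes these counts were 1249 and 685. The 917 were likewise chosen by tests on these E18 arrays, so such extremes follow in part from that choice. Aldoc, an aldolase on both the glycolysis and the astrocyte list, measured 7.35 and 7.44 in CSMN and 13.15 and 12.57 in CPN (44.2-fold lower). The metallothionein Mt2 measured 7.63 and 7.23 in CSMN and 12.62 and 11.85 in CPN (27.9-fold lower, -4.80 ± 0.39). Mt1 measured 5.98 and 6.21 in CSMN and 11.86 and 11.53 in CPN (-5.60 ± 0.49), but another probe set of that gene differed by 0.12. Acot1, a thioesterase of fatty acyl-CoA, measured 5.92 and 5.50 in CSMN and 11.48 and 11.07 in CPN (-5.57 ± 0.30), and Hadh, an enzyme of fatty acid oxidation, measured 6.46 and 5.80 in CSMN and 11.40 and 11.12 in CPN (-5.13 ± 0.31). Mfge8, a secreted protein that bridges cells, was 30.8-fold lower, with 7.69 and 8.31 in CSMN and 13.10 and 12.79 in CPN. Erbin (-5.22), S1pr3 (-5.21), H2bc21 (-5.04) and the cyclin kinase subunit Cks2 (-4.95) make up the 12 named genes with Pbx3, Celsr1 and Ccn2. Erbin, S1pr3 and Aldoc did not pass without suffixed probe sets (adjusted p = 0.935, 0.405 and 0.0513). H2bc21 and Hadh also rest on suffixed probe sets. Their other probe sets differed by -1.89 (H2bc21) and by -0.95 and -1.80 (Hadh). The astrocyte and progenitor lists had medians of -2.33 and -3.00 in the same arrays, and their part in these decreases was not tested.

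Peptide genes held called members in both directions. Of 34 neuropeptide and receptor genes 4 rose and 5 fell (median 0.02, and -0.54 with arrays centred on pan-neuronal genes). Of all genes 3.98% rose and 8.94% fell. Adcyap1, the peptide PACAP, measured 8.82 and 8.93 in CSMN and 6.93 and 7.31 in CPN (3.38-fold, 1.76 ± 0.25, later 1.22), while its receptor Adcyap1r1 measured 7.70 and 8.22 in CSMN and 10.69 and 9.99 in CPN (5.21-fold lower, -2.38 ± 0.33, later -0.89). By these probe sets ligand and receptor moved in opposite directions at E18, and their later differences had opposite signs. Other probe sets of Adcyap1r1 differed by 0.21 and 0.10 at E18 and were not called. Npy1r, a receptor of neuropeptide Y, measured 8.83 and 8.27 in CSMN and 6.81 and 6.69 in CPN (3.49-fold, 1.80 ± 0.31, later -0.14). The peptide Cck measured 6.05 and 5.52 in CSMN and 9.11 and 7.93 in CPN (-2.73 ± 0.34), and the somatostatin receptor Sstr2 was 4.26-fold lower. Grp (-2.27) and Npy (-1.71) did not pass without CPN replicate 1 (adjusted p = 0.378 and 0.315) or CSMN replicate 1 (adjusted p = 0.167 and 0.176).

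Early response genes, which many stimuli and cell dissociation induce within minutes, fell for 8 of 24 and rose for none (median -0.15). Fos measured 6.88 and 5.45 in CSMN and 9.38 and 10.84 in CPN (-3.95 ± 0.51, later -1.37). Egr1 measured 6.49 and 7.32 in CSMN and 9.19 and 10.74 in CPN (-3.06 ± 0.45), and Jun measured 7.53 and 7.14 in CSMN and 10.58 and 10.12 in CPN (8.09-fold lower). These 3 passed with each E18 array left out, and Egr1 and Jun were not called later. Others of the list, such as Arc (0.13), Egr3 (0.01) and Nr4a1 (0.06), did not pass. In metabolism, glucose enzymes split: of 16 glycolysis genes 5 fell and 2 rose. Slc2a1, the glucose transporter GLUT1, measured 6.53 and 6.04 in CSMN and 9.74 and 9.18 in CPN (-3.18 ± 0.40). It did not pass without suffixed probe sets (adjusted p = 0.0857). Pfkp, a phosphofructokinase (1.56), and Eno2, the neuronal enolase (1.38), rose, and neither passed without CPN replicate 2 (adjusted p = 0.0911 and 0.225) or CSMN replicate 1 (adjusted p = 0.0976 and 0.178), and Pfkp did not pass without CPN replicate 1 or CSMN replicate 2 (adjusted p = 0.11 and 0.0653). Of 39 oxidative phosphorylation genes none rose and Ndufa2 fell (-0.89), with a median of -0.25 that became 0.0053 after quantile normalization. Ndufa2 did not pass without CPN replicate 1, CPN replicate 2 or CSMN replicate 2 (adjusted p = 0.0748, 0.0756 and 0.0999), nor after quantile or loess normalization (adjusted p = 0.108 and 0.0941). Of 17 cholesterol genes 2 rose and 1 fell, and Srebf1, which controls lipid synthesis, was 4.38-fold lower. The chromatin subunits Actl6a (-2.51) and Ss18 (-2.19), which belong to the progenitor form of the BAF complex, were the 2 of 23 BAF and splicing switch genes that fell; none rose here, and 2 rose after quantile normalization. Ss18 did not pass without suffixed probe sets (adjusted p = 0.375).

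The 47 genes called in opposite directions comprised 39 that were lower in CSMN at E18 and higher later, and 8 that were higher first. Nfia, a nuclear factor of layer formation and gliogenesis, measured 9.71 and 9.33 in CSMN and 11.45 and 11.22 in CPN (3.52-fold lower, -1.81 ± 0.22), and was higher by 1.20 later. Its mean in CSMN was 9.52 at E18, 10.24 at P6 and 9.92 at P14, and in CPN 11.33, 8.80 and 8.18, so the CPN level moved more than the CSMN level. Sema3c, a secreted semaphorin, measured 8.08 and 7.76 in CSMN and 9.26 and 9.73 in CPN (2.98-fold lower, -1.57 ± 0.27). Its means at E18, P3, P6 and P14 were 7.92, 10.38, 10.87 and 10.31 in CSMN and 9.50, 8.59, 8.56 and 8.76 in CPN. In Sema3c the CSMN level moved the more, and its second probe set (0.70) was not called at E18, and their mean did not pass (adjusted p = 0.148). Dscaml1, an adhesion protein, measured 7.27 and 6.36 in CSMN and 8.86 and 8.91 in CPN (-2.07, later 1.83), and the mean of its probe sets did not pass (adjusted p = 0.23). The 47 also held the acyl-CoA dehydrogenases Acadl (-2.58, later 0.69) and Acadm (-1.10, later 0.84) and the thiolase Acaa2 (-1.57, later 0.97). Acaa2 did not pass without suffixed probe sets (adjusted p = 0.0687). Acaa2 and Acadm did not pass without CPN replicate 1 (differences of -1.08 and -1.04). Acadm also did not without CPN replicate 2 or CSMN replicate 1 (differences of -1.17 and -0.76). In the other direction Kcnv1, a silent potassium channel subunit, measured 8.63 and 8.74 in CSMN and 7.77 and 6.61 in CPN (1.49 ± 0.33), with a later difference of -1.35. Its means at E18, P3, P6 and P14 were 8.68, 8.44, 8.12 and 7.94 in CSMN and 7.19, 8.99, 9.27 and 10.29 in CPN. It did not pass without CPN replicate 2 (adjusted p = 0.089). Dscaml1, Acadl, Acaa2 and Acadm were named after their values had been seen.

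Of 9160 probe sets without a gene symbol 646 (7.05%) were called at E18, 508 higher and 138 lower in CSMN, where 4510 of all 45037 probe sets (10%) were called. Probe set 1439709_at measured 6.64 and 8.09 in CSMN and 4.84 and 5.24 in CPN (2.33 ± 0.37), and 1458967_at measured 8.90 and 8.84 in CSMN and 6.42 and 6.73 in CPN (2.29 ± 0.23). Probe set 1434893_at measured 5.20 and 4.26 in CSMN and 10.28 and 10.38 in CPN (-5.60 ± 0.65). Among the 48 genes named for the size of their difference, 31 have more than 1 probe set, 5 of these (Dcc, Epha3, S1pr3, Tcf12 and Mt1) have a probe set of the opposite sign, and in none was that probe set called.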

How the data were processed

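RNA from 19 samples was measured on Affymetrix Mouse Genome 430 2.0 arrays. Values were deposited on the log2 scale, after RMA by the authors per the submitters' processing notes; the software version is not given in the sources used here. RMA scales the arrays towards alike distributions, so differences are relative to the other genes on an array. The deposited arrays still differed in spread, with standard deviations from 1.77 to 2.09. Of 45101 probe sets 64 are controls, 34945 carry 1 gene symbol, 932 several and 9160 none. The brightest single-symbol probe set by its mean over all arrays stood for each of 18193 genes.

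A limma fit took the 9 groups together, with 10 residual and 4.46 prior degrees of freedom, since 2 arrays a group give little spread of their own. Tests were two-sided and moderated, with Benjamini-Hochberg adjustment over all genes and a threshold of 0.05. Contrasts were CSMN minus CPN at E18, the mean of P3, P6 and P14, and the difference between these. The labels call replicates independent collections and give no batch, so replicate numbers were not used to pair samples. Deviations of same-numbered arrays correlated between -0.22 and 0.59 over 36 pairs of groups, and by 0.20 at E18. These values cannot exclude a batch shared by same-numbered arrays.

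Named genes are the 12 largest differences in each direction among genes called at E18 and later, and among genes called at E18 and in the difference but not later, passing over clone names and, for decreases, the cell cycle, progenitor and astrocyte lists; up to 4 called members of each gene list and further members by role; and Bcl11b, Fezf2, Crym, Lmo4 and Cux2. Of 836 genes in 38 lists 788 were measured. The comparison, lists and named members were chosen with earlier results of these data known, so no list was tested. Alternatives were quantile and loess normalization, centring on pan-neuronal genes, a brightness filter, other choices of probe set, an intensity trend, array weights, fewer arrays, a replicate block and leaving out each array. The method was tested on simulated data. R 4.3.3 with limma 3.58.1 and Python 3.11.15 with matplotlib 3.10.9 were used.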

Additional observations from a re-analysis of the deposited data

Results flagged for a closer look

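The difference between CSMN and CPN at E18 was itself tested against the mean difference of P3, P6 and P14 for every gene, and 1483 genes passed at an adjusted p under 0.05, 369 with a higher and 1114 with a lower value at E18. Values below are the E18 difference minus the later one on the log2 scale. Among genes higher in CSMN at both times the difference was larger at E18 for Tcerg1l (1.31), Tafa1 (2.01), Thy1 (1.74), Nefl (1.58), Nfe2l3 (1.69) and Gda (1.86). Among genes lower at both times it was more negative at E18 for Itgb8 (-3.39), Fgfbp3 (-4.54), Dcc (-2.25), Rlbp1 (-3.58), Epha4 (-3.35), Klhl13 (-3.70), Epha3 (-2.36), Ccdc80 (-3.45), Cited2 (-2.61), Tcf12 (-3.13) and Btg1 (-2.31). Genes higher at E18 and not called later were Prickle1 (2.25), Cdkl2 (1.90), Frzb (2.83), Kcnt2 (2.23), Npy5r (2.72), Nrsn1 (2.81), Kcns2 (1.84), Ptprr (1.92), Tbc1d5 (2.11), Fam185a (1.68), Scn2a (1.65) and Cyb561 (1.62). Genes lower at E18 and not called later were Pbx3 (-6.38), Mt1 (-6.06), Acot1 (-5.34), Erbin (-4.57), S1pr3 (-4.18), Hadh (-5.40), Celsr1 (-5.29), Ccn2 (-5.98), H2bc21 (-4.88), Cks2 (-5.20), Mfge8 (-4.87) and Mt2 (-4.74). The differences at E18 and later were called with opposite signs for Etv5 (-3.50), the radial glial marker Hes1 (-1.94), Kcnv1 (2.84), Ldhb (-2.23), Nfia (-3.01) and Sema3c (-3.46). For Crym (-2.96) the difference was smaller at E18. Of these, Etv5 did not pass at E18 without CPN replicate 1 or CSMN replicate 2 (adjusted p = 0.123 and 0.0584), Hes1 did not without CPN replicate 1 or CSMN replicate 1 (adjusted p = 0.114 and 0.0718), Kcnv1 did not without CPN replicate 2 (adjusted p = 0.089), and Crym did not with all arrays. The progenitor, cell cycle and astrocyte lists also differed between E18 and later (19 of 25, 19 of 26 and 10 of 15 genes lower in this test), and their part in the values above was not tested.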

How the results depend on the processing

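Each setting was changed on its own. Calls at E18 (2350) numbered 5273 with arrays centred on pan-neuronal genes, 1331 with genes above the median brightness, 992 with array weights and 843 with the E18 arrays alone. The brightness setting tested fewer genes, and 1293 of its 1331 calls were also called in the same direction in the main fit. Increases (724) numbered 1448 after quantile normalization and, in the other settings just named, 110, 255, 126 and 83, with 228 at a minimum log2 difference of 1. Decreases (1626) numbered 5163, 1076, 866 and 760 in those 4 settings. Later calls (747) were 9700 with centring and 310 with the minimum difference, calls of the difference between E18 and later (1483) were 703 with the bright genes and 659 with array weights, and calls in the same direction at both times (232) were 3474 with centring, 124 with array weights and 106 with the minimum difference. Loess normalization, the intensity trend, other choices of probe set and a model without corticotectal arrays moved none of these 6 counts by over 1.5 times.

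Leaving out 1 array at a time gave 1121 to 4253 calls at E18, 276 to 1820 increases, 789 to 2433 decreases, 502 to 3098 later calls, 884 to 3291 calls of the difference and 148 to 810 in the same direction at both times. The lowest E18 counts came without CPN E18 replicate 1, or replicate 2 for increases, and the highest without either CSMN P14 array. A group left with 1 array is assumed to vary like the others. The replicate block called 2617 genes at E18, 812 later, 1753 in the difference and 254 in the same direction at both times. Since the labels give no batch or pairing, it is given only as a setting.

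Over 293 genes and all alternatives 8393 values were compared: 7537 kept direction and side of the threshold, 837 no longer passed, 10 newly passed and 9 changed sign. Without suffixed probe sets (names ending in _a_at, _s_at or _x_at) the difference became 0.065 for Tcf12, 0.12 for Mt1, 0.42 for Grik1, 0.35 for Fgfr2, -0.18 for Kcnma1, 0.37 for Slc25a39, 0.28 for Tank and 0.035 for Tex9, since another probe set then stands for the gene. With the mean of all probe sets Wnt7a became -0.34. None of these 9 passed there. With the mean of all probe sets Slit2 (adjusted p = 0.0717), Gabra2 (0.315), Gria4 (0.109) and Map4 (0.215) also did not pass, and with array weights Bcl11b (0.0666), Cux2 (0.114), Npy1r (0.0733), Rgma (0.0547) and Kcnv1 (0.106) did not. In all 139 genes kept direction and side under every alternative. Signal near background limits dim genes, most of all those below 6.62 in CSMN.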
